A study of Mus musculus with 6 samples.

Results

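This report describes 40 genes of ependymal cells and motile cilia in the brains of mice fed protease-treated porcine liver decomposition product (PLDP). The members were chosen by symbol as regulators of ciliogenesis, axonemal dyneins, other axoneme components and genes typical of ependymal cells. The rule itself holds no measured value, but it was written with earlier results of these data known. All 40 symbols matched 1 Ensembl identifier each in GENCODE M21 (build GRCm38), out of 60354 features counted. Whole-brain RNA was sequenced from control mice 2, 5 and 10 and from PLDP mice 17, 22 and 26, all of them male C57BL/6NCrSlc mice that were 16 weeks old when the diets began. PLDP mice received a modified AIN-93M diet holding 20% PLDP for 16 weeks, and control mice received a modified AIN-93M diet with 0% PLDP and matched calories for the same time. Both groups then went through behavioral tests, during which the PLDP diet was not given, and RNA was taken afterwards. The comparison asks whether long-term PLDP feeding went with a change in these transcripts.

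Ependymal cells line the brain ventricles, and each carries a tuft of motile cilia whose beating moves cerebrospinal fluid. A motile cilium is built on doublet microtubules around a central pair. Dynein arms on the doublets produce the sliding force, and radial spokes, the central pair apparatus and the nexin-dynein regulatory complex turn sliding into a coordinated bend. Foxj1 and the RFX transcription factors switch on the genes of this structure, and RFX proteins bind a DNA element called the X-box. Ependymal cells are a small share of a whole brain, so their transcripts are diluted, and some of the members, Rfx3 among them, are also transcribed in neurons. In such bulk RNA, fewer cells of a type and less RNA per cell cannot be told apart.

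Many of the members carry RFX-type letters close to their start, which is shown first because the choice of genes did not read the sequence. The genes were chosen as parts of a structure that RFX factors switch on, so this share is not independent of the choice. RefSeq promoter windows of build GRCm38.p6, reaching from 250 bases before to 50 bases after a gene start, were found for 35 of the 40 members. The core letters GTTGCC, the arm of an X-box, were searched on both strands (GGCAAC on the gene's own strand marks a match on the opposite strand). They occurred in a window of 18 of these 35 members, or 51.4%, against 14.1% of all 27025 genes with a window. In 9 of the 18 members a core began within the last 50 bases before the start. A paired form, GTTNCC and GGNAAC separated by 1 to 3 bases, occurred in 2 members, Pifo and Iqca (5.71% of members against 0.903% of all genes). A paired match in these windows can overlap a core match. The forkhead letters TGTTTAC, also searched on both strands, occurred in 2 members, Ak7 and Cfap43 (5.71% against 4.05% of all genes). These matches are descriptions of the sequence and do not show that a factor binds there.

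Sequences of 5 members are given because the results turn on 4 of them and because Pifo, with Iqca, holds the paired form. Each is written 5′ to 3′ on the strand of the gene, with the core or the paired cores and the bases between them in capitals.
Drc1 (chr5:30281366-30281392, plus strand): gtgactgctttcccttGGCAACggctt
Hydin (chr8:110266948-110266976, plus strand): actctgcggttgctgtGGCAACagatggt
Iqca (chr1:90153507-90153552, minus strand): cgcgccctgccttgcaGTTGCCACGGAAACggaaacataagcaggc
Pifo (chr3:106001498-106001533, minus strand): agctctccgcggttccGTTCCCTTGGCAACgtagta
Rfx3 (chr19:28011130-28011140, minus strand): caaccGTTGCC
Counted with the start base as 0, the first base of the core was at -11 in Drc1 and at -13 in Hydin. In Rfx3 it was at 31, after the start. The first base of the paired form was at -20 in Pifo and at -100 in Iqca.

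**Figure D1:**
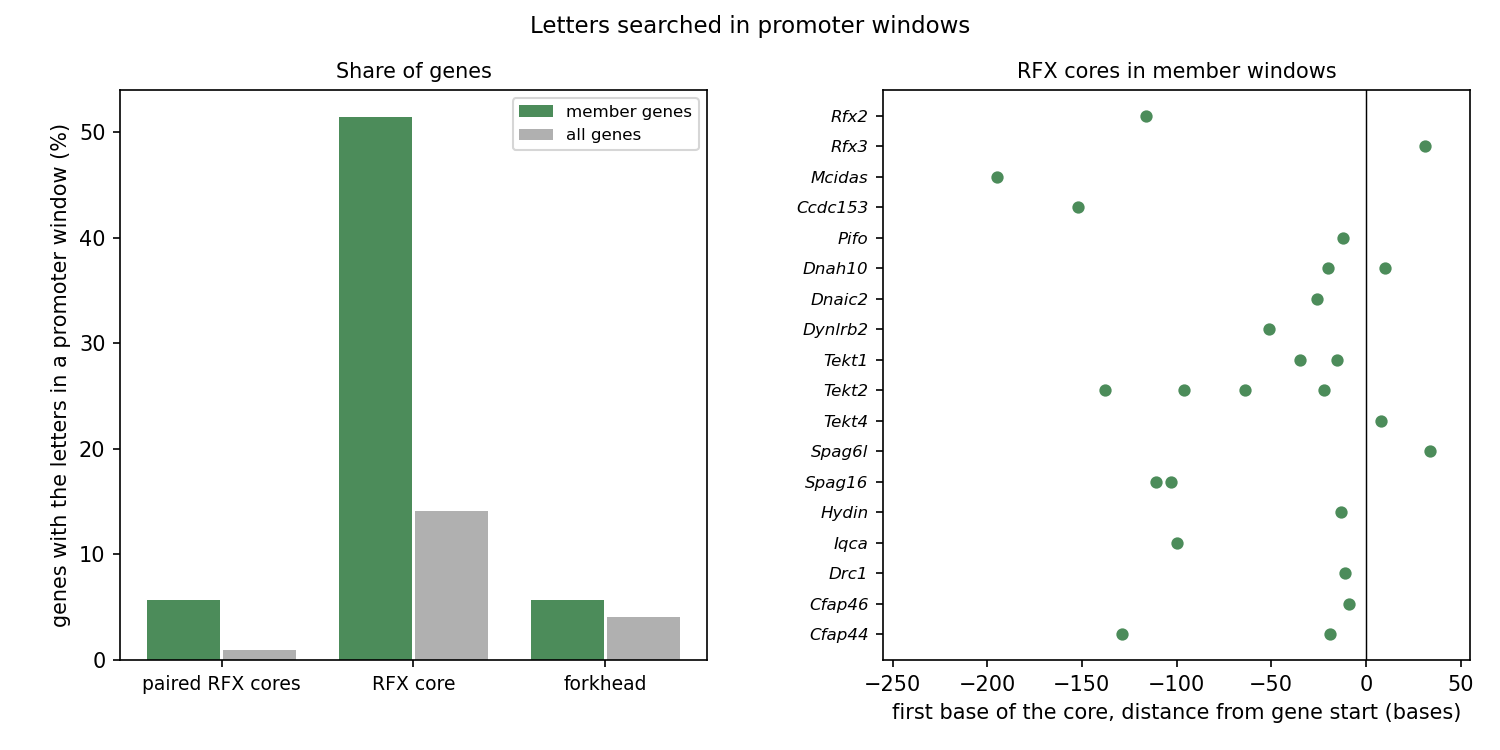
Left, the percentage of genes with each set of letters in a RefSeq promoter window, for the 35 member genes with a window (green) and all 27025 genes (grey). Right, the distance in bases from the gene start to the first base of each RFX core in the 18 members that hold one, with Tekt2 plotted from its different RefSeq starts. The core was found in 51.4% of members and 14.1% of all genes.

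Libraries held between 18797061 and 23938729 counts, and mitochondrial genes took 2.54% to 2.80% of them. Among pairs of mice of the same diet, the mean chi-square per feature was between 2.62 and 3.60 in the control mice, and PLDP mouse 17 differed from its diet mates by 6.07 and 6.42 while they differed from each other by 2.74. The tissue was checked with lists of cell type markers. Neuron markers summed to 4451 to 4624 CPM (library-size-normalised counts) and astrocyte markers to 4087 to 4177 CPM. The 5 oligodendrocyte markers given here summed to 4994 to 5364 CPM in the control mice and 4642 to 5266 CPM in the PLDP mice. All 5 had a fold change below 1, and 1 of them (20.0%, against 3.69% of all features) was called lower, Mbp. Of 8 testis germ cell markers, which would reveal ciliated cells of another origin, 5 were at 0 counts in every mouse, and Ddx4 had most of the 2.36 to 3.90 CPM that the list summed to.

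The levels of the members were low. The tested members had a median of 75.5 counts per mouse, with values from 8 counts (Spag17) to 734 (Rfx3), against a median of 355.0 over all features tested. Divided by exon length, Drc1 was the highest with 4.31 CPM per kb, followed by Rsph1 with 3.54, Rarres2 with 3.18 and Ccdc39 with 2.97 CPM per kb. Spag17 was the lowest tested member with 0.0728 CPM per kb. The long dynein heavy chain genes lay between 0.106 CPM per kb (Dnah12) and 1.01 (Dnah11). Levels of Ccdc39 and Rarres2 are uncertain because 16.9% of the exon bases of Ccdc39 are shared with Ttc14 and 33.6% of those of Rarres2 with Lrrc61, both on the opposite strand, and whether counting used strand is not given in the sources used here. In all, 16 of the 40 members share some exon bases with another annotated gene. Spag6l has a close paralog, and how reads shared by such genes were counted is likewise not given.

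**Figure D2:**
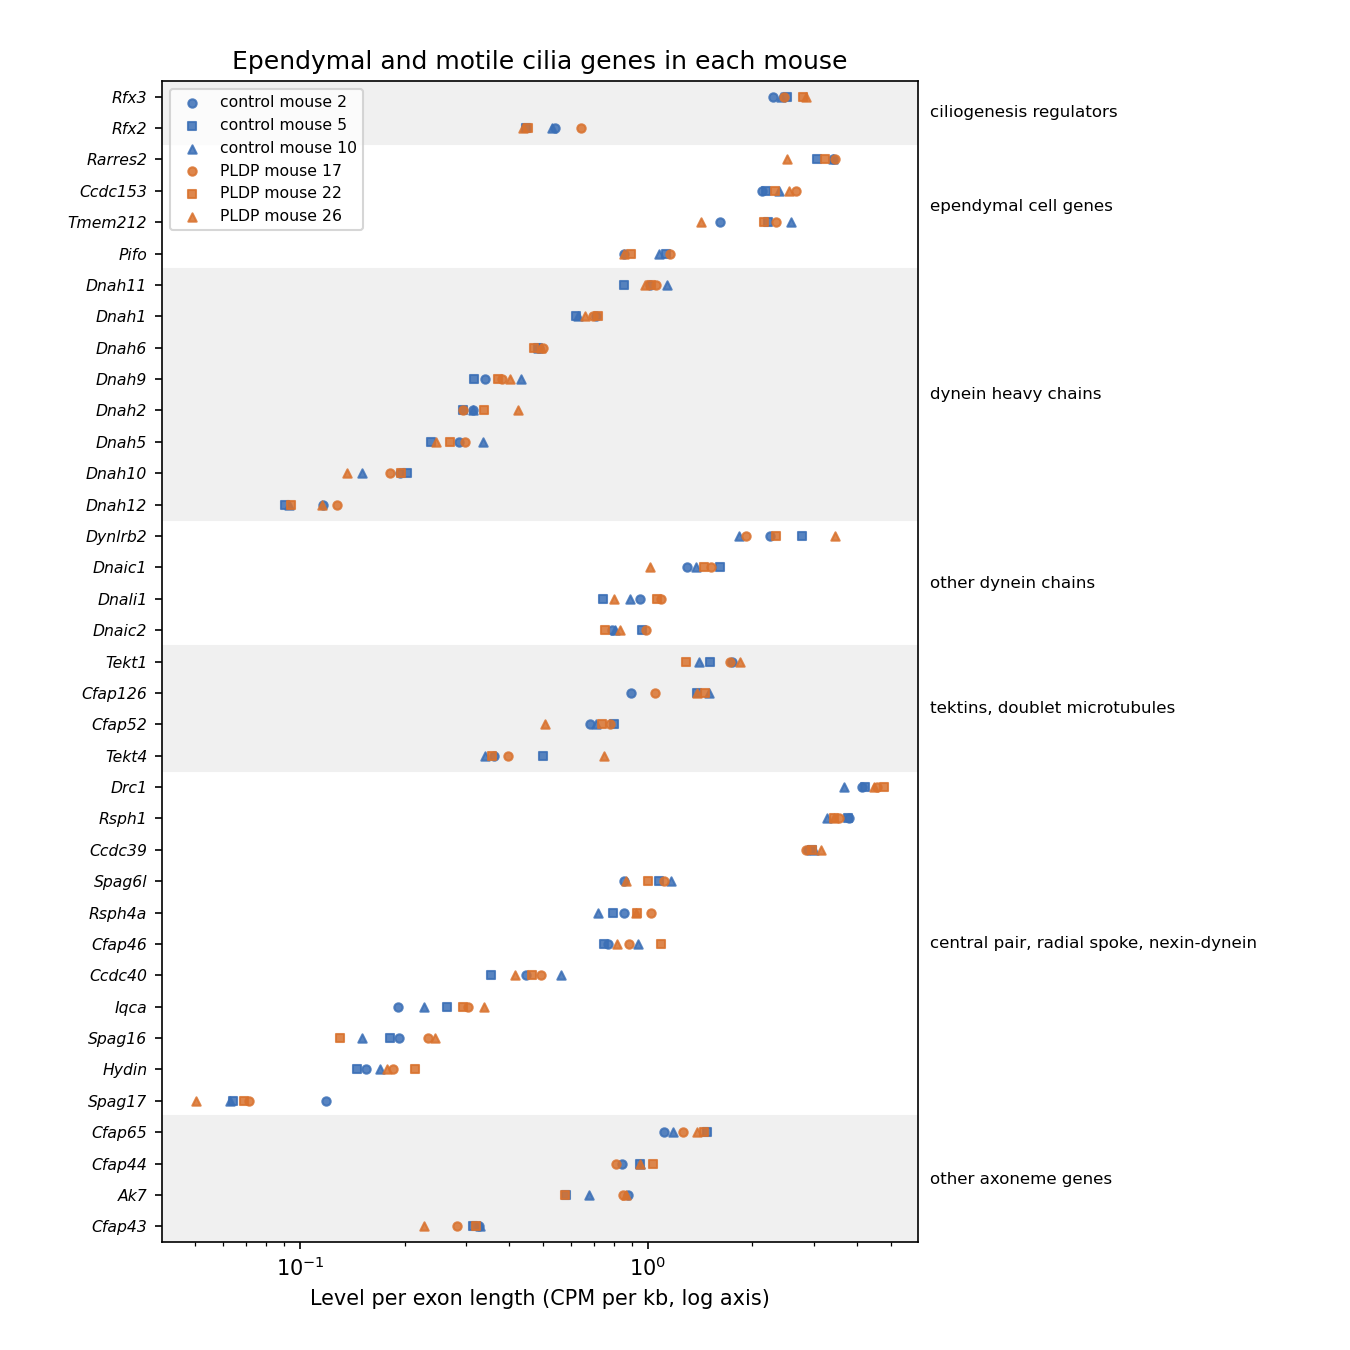
Level of each of the 37 tested members in each mouse, as CPM per kb of exon on a log axis, with control mice in blue, PLDP mice in orange and a marker shape per mouse. Genes are grouped by role and ordered by level. Points of both diets lie close together for most genes, from 0.0728 CPM per kb on average in Spag17 to 4.31 in Drc1.

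The diets differed little in these genes. Of the 40 members, 37 passed the filter on low counts and were tested with edgeR's quasi-likelihood test over all 18580 features. At an unadjusted p under 0.05, the threshold used in the study, 2 members were higher in the PLDP mice, Rfx3 and Drc1, and 0 were lower. This is 5.41% of the tested members higher, against a background of 4.91% of all features called higher and 3.69% called lower. In either direction 8.6% of all features were called. No member had a Benjamini-Hochberg adjusted p under 0.05 (the smallest was 0.523, for Rfx3), and 6 of all features did (0.0323%). With DESeq2, 0 members had an unadjusted p under 0.05, while 564 of the 18580 features were called higher and 362 lower. Of the tested members, 26 (against 49.8% of all features) had a fold change above 1 and 11 below, with a median log2 fold change of 0.045 against -0.00062 over all features. Every PLDP mouse lay above every control mouse for 4 members, Drc1, Hydin, Rsph4a and Iqca, and 0 members showed the opposite. That is 10.8% of the tested members with separate groups, against a background of 14.2% in either direction and 7.29% with every PLDP mouse above.

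Precision set the size of difference that could be seen. The half-width of the 95% interval of a log2 fold change had a median of 0.34 over the members and ran from 0.15 (Ccdc39) to 0.77 (Spag17). For 25 of the 37 tested members, the whole interval lay within a 1.5-fold change in either direction, and for 36 it lay within 2-fold. Within a diet, the coefficient of variation of a member's CPM had a median of 13.2%, against 6.76% over all features, which had more counts. No exact two-sided permutation p for one gene could fall below 0.1 with 3 mice per diet, so the p-values here come from the model fitted across all features.

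**Figure D3:**
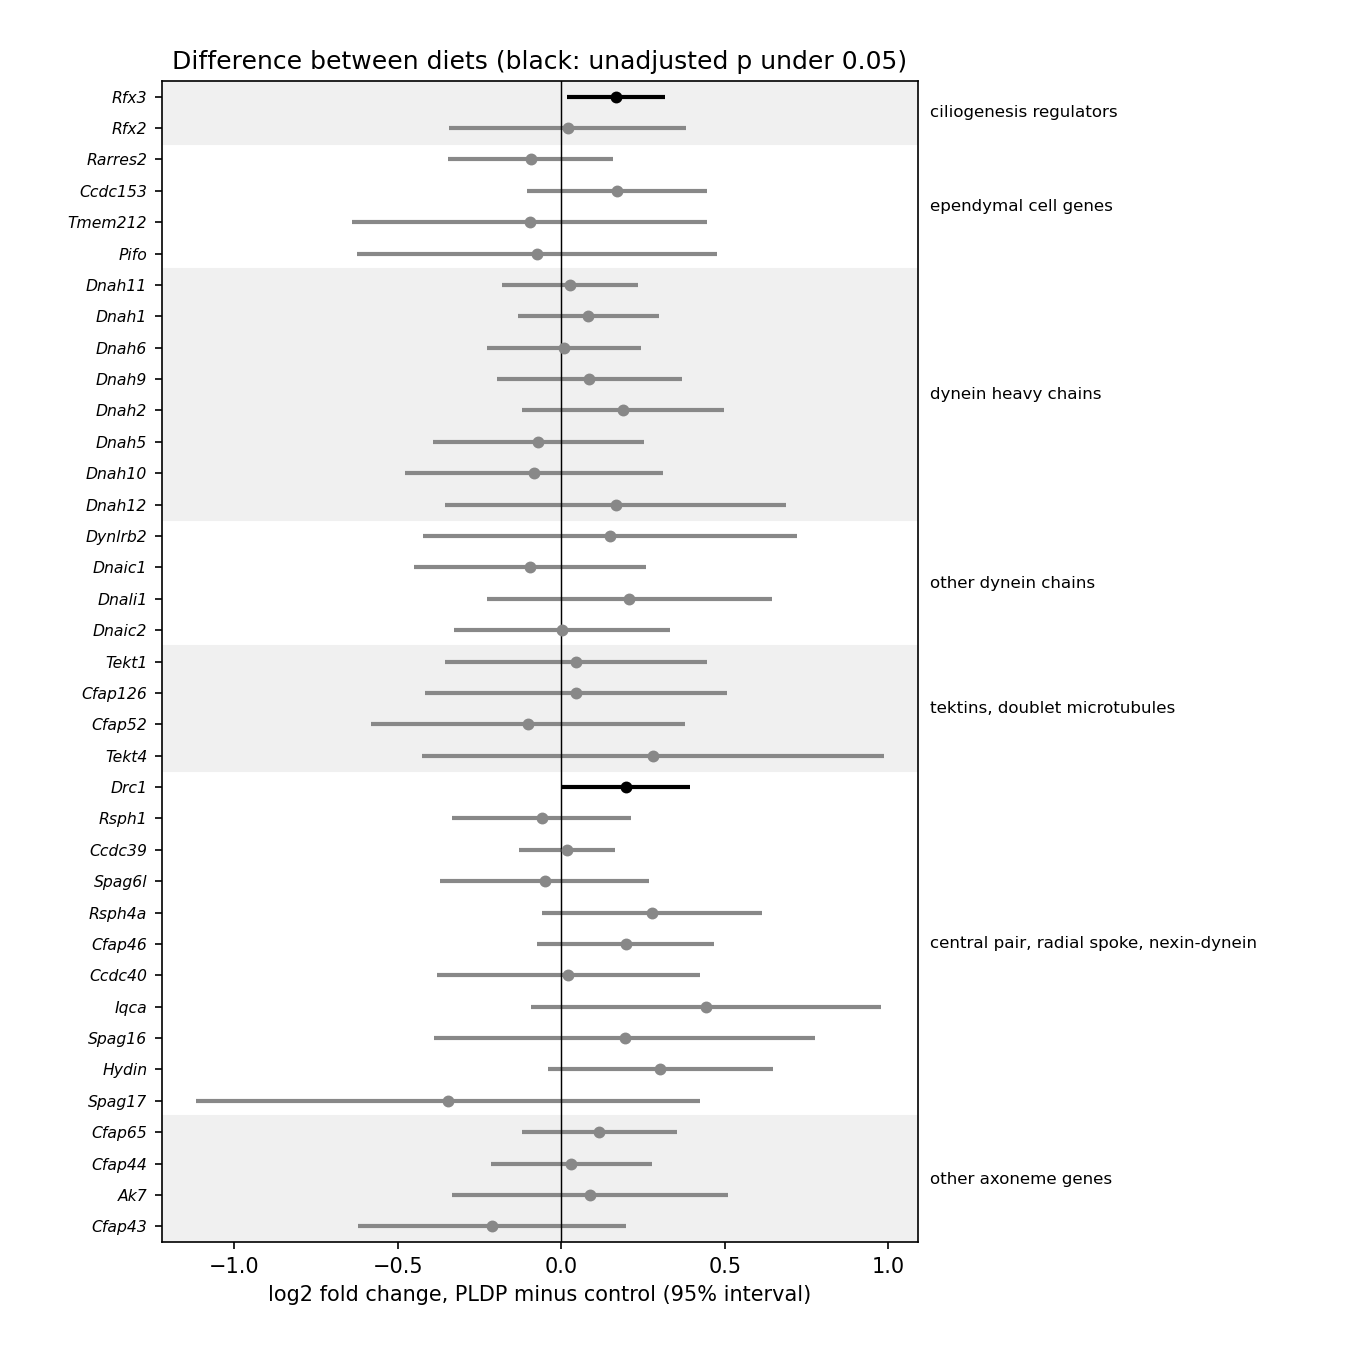
Log2 fold change of each tested member, PLDP minus control, with its 95% interval from edgeR's quasi-likelihood fit, grouped by role and ordered by level as before. Members with an unadjusted p under 0.05 are black and all others grey. The intervals of Rfx3 (0.02 to 0.32) and Drc1 (0.003 to 0.39) exclude 0, and those of the other 35 include it.

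Among the regulators of ciliogenesis, Rfx3 was higher in the PLDP mice and Rfx2 showed no difference that the test could detect. Rfx3 encodes an RFX factor that binds X-boxes in cilia genes (ENSMUSG00000040929, chromosome 19 of GRCm38 from 27761721 to 28011166). It had 25.3, 27.8 and 26.6 CPM in control mice 2, 5 and 10 and 27.2, 30.8 and 31.5 CPM in PLDP mice 17, 22 and 26. PLDP mouse 17 lay below control mouse 5, so the groups overlapped, and the other PLDP mice lay above all control mice. The means were 26.6 ± 1.28 and 29.8 ± 2.34 CPM (SD over 3 mice each), and the log2 fold change was 0.17 with a standard error of 0.07 (edgeR quasi-likelihood test, unadjusted p = 0.0319, Benjamini-Hochberg adjusted p = 0.523). Without PLDP mouse 17 the log2 fold change of Rfx3 was 0.23 (unadjusted p = 0.00267), and without control mouse 2, control mouse 10, PLDP mouse 22 or PLDP mouse 26 its unadjusted p from edgeR was between 0.0641 and 0.134.

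Rfx2, a related factor of multiciliated cells and the testis, had 3.27 to 3.94 CPM in the control mice and 3.21 to 4.70 CPM in the PLDP mice. PLDP mouse 17 was its highest mouse, and the groups overlapped. The log2 fold change of Rfx2 was 0.02 (95% interval -0.34 to 0.38). Mcidas, the gene of multicilin, which starts the multiciliated cell program in progenitors, had 1, 1 and 4 counts in the control mice and 4, 6 and 1 in the PLDP mice and was not tested.

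Foxj1, the main transcription factor of motile ciliogenesis (ENSMUSG00000034227, chromosome 11 from 116330704 to 116335399), was listed at 0 counts in all 6 mice. A count of 0 in the 127717234 counts of all mice together allows a level of up to 0.0235 CPM, for counting error only. Axoneme genes were counted in the same libraries, among them Drc1, which shares no exon bases with another gene, at 11.6 CPM on average. No exon of another gene in GENCODE M21 shares bases with Foxj1. The annotation used in counting, and what the 5320 numbered features without an Ensembl identifier stand for, are not given in the sources used here. Reads of Foxj1 may therefore not have been assigned to it, and the limit above holds only for reads that counting could assign. The value is given as listed and not as the absence of its transcript.

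The genes typical of ependymal cells did not pass the test in either direction. Rarres2, which encodes the secreted chemoattractant chemerin, had 9.04, 8.12 and 9.07 CPM in the control mice and 9.16, 8.60 and 6.68 CPM in the PLDP mice. PLDP mouse 26 was lower than the other 5 mice, which overlapped. The means of Rarres2 were 8.74 ± 0.54 and 8.14 ± 1.30 CPM (SD over 3 mice each), and the log2 fold change was -0.09 with a standard error of 0.12 (edgeR quasi-likelihood test, Benjamini-Hochberg adjusted p = 0.882). Ccdc153, a coiled-coil gene used as a marker of ependymal cells, had 4.33, 4.45 and 4.85 CPM in the control mice and 5.44, 4.74 and 5.18 CPM in the PLDP mice. Its groups overlapped only through PLDP mouse 22 and control mouse 10, and its log2 fold change was 0.17 (95% interval -0.11 to 0.45). Tmem212, a membrane protein gene of the same cells, had 1.16, 1.59 and 1.84 CPM in the control mice and 1.67, 1.55 and 1.02 in the PLDP mice, with a log2 fold change of -0.10 (95% interval -0.64 to 0.45). Pifo, which takes part in ciliary disassembly, ranged from 0.962 to 1.27 CPM in the control mice and from 0.962 to 1.30 CPM in the PLDP mice. PLDP mouse 26, the shallowest library, was the lowest or joint lowest mouse for Rarres2, Tmem212 and Pifo. Over all tested members it was the lowest mouse for 9 and the highest for 8. Whether depth played a part was not tested.

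All 8 axonemal dynein heavy chain genes were tested, and 0 were called in either direction at an unadjusted p under 0.05. With 8.6% of all features called, a count of 0 in a group of this size or smaller is near the background and says nothing particular of it. Their log2 fold changes ran from -0.08 to 0.19 with a median of 0.055, and the groups overlapped in each gene. Dnah11, a heavy chain of the outer arm near the ciliary base, was the highest per CPM with 14.7, 12.4 and 16.4 CPM in the control mice and 15.3, 14.8 and 14.2 CPM in the PLDP mice. The 3 PLDP mice lay within the range of the controls. Dnah11 means were 14.5 ± 2.04 and 14.8 ± 0.57 CPM (SD over 3 mice each), and the log2 fold change was 0.03 with a standard error of 0.10 (edgeR quasi-likelihood test, Benjamini-Hochberg adjusted p = 0.966), and 4.44% of its exon bases are shared with Cdca7l on the opposite strand.

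The other outer arm heavy chains were similar in both diets. Dnah5 ranged from 3.72 to 5.24 CPM in the control mice and from 3.85 to 4.65 in the PLDP mice, and Dnah9, found in the distal part of the cilium, from 5.04 to 6.89 and from 5.91 to 6.41. Of the inner arm chains, Dnah6 had the narrowest range of all heavy chains, from 6.25 to 6.60 CPM over the 6 mice, with a log2 fold change of 0.01 (95% interval -0.23 to 0.24). Dnah2, of the double-headed inner arm, had 4.71, 4.40 and 4.70 CPM in the control mice and 4.42, 5.07 and 6.36 CPM in the PLDP mice. PLDP mouse 26 was its highest mouse, and PLDP mouse 17 lay among the controls. Dnah10, its partner in that arm, had a log2 fold change of -0.08 (95% interval -0.48 to 0.31), and PLDP mouse 26 was its lowest mouse with 2.19 CPM. Dnah1 and Dnah12, chains of single-headed inner arms, had log2 fold changes of 0.08 and 0.17, and Dnah12 rested on only 23 to 33 counts per mouse.

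The smaller dynein chains also overlapped between the diets, with 0 of 4 called (8.6% of all features were called and 14.2% had separate groups). Dnaic2, an intermediate chain of the outer arm and the highest of these genes, had 3.61, 4.40 and 3.69 CPM in the control mice and 4.51, 3.44 and 3.795 CPM in the PLDP mice. Each diet had 1 mouse above 4 CPM. The means were 3.90 ± 0.44 and 3.91 ± 0.55 CPM (SD over 3 mice each), and the log2 fold change was 0.0012 with a standard error of 0.16 (edgeR quasi-likelihood test, Benjamini-Hochberg adjusted p = 0.999). Dnaic1, the other intermediate chain, had a log2 fold change of -0.10, with PLDP mouse 26 lowest at 2.83 CPM. Dnali1, a light intermediate chain of inner arms, had 1.83 ± 0.22 and 2.10 ± 0.34 CPM, and Dynlrb2, a roadblock-type light chain, 1.27 ± 0.26 and 1.43 ± 0.44 CPM (SD, n = 3 each).

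Tektins form filaments inside the wall of the doublet microtubules, and 0 of the 4 tested genes of this group were called, against 8.6% of all features. Tekt1, the highest of them in CPM, had 2.84, 2.45 and 2.28 CPM in the control mice and 2.79, 2.10 and 2.99 CPM in the PLDP mice. The lowest and the highest mouse were both PLDP mice. The means of Tekt1 were 2.52 ± 0.29 and 2.63 ± 0.47 CPM (SD over 3 mice each), and the log2 fold change was 0.05 with a standard error of 0.19 (edgeR quasi-likelihood test, Benjamini-Hochberg adjusted p = 0.970). Tekt4 had 0.722, 0.998 and 0.679 CPM in the control mice and 0.790, 0.713 and 1.497 CPM in the PLDP mice, and its log2 fold change of 0.28 came with an interval from -0.43 to 0.99. PLDP mouse 26 alone lay above the controls. Tekt2 had at most 2 counts in any mouse and was not tested. Cfap52 and Cfap126, also proteins of the doublet, had log2 fold changes of -0.10 and 0.05.

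The central pair, radial spoke and nexin-dynein regulatory genes held 1 of the 2 called members and all 4 members whose groups did not overlap. Called members were 9.09% of the 11 genes, against 8.6% of all features, and members with separate groups 36.4%, against 14.2%. This group was singled out after the values were seen, and its difference from the other members was not tested. Of the 11 genes, 8 had a fold change above 1, and the median log2 fold change was 0.19. Their levels summed to 60.5, 60.9 and 62.2 CPM in the control mice and 65.1, 67.0 and 64.1 CPM in the PLDP mice, of which Ccdc39 and Drc1 made up more than the other genes together. Drc1 encodes a core subunit of the nexin-dynein regulatory complex (ENSMUSG00000073102, chromosome 5 of GRCm38 from 30281388 to 30366695), and no exon of another annotated gene shares its bases. It had 11.1, 11.3 and 9.85 CPM in the control mice and 12.3, 12.8 and 11.97 CPM in the PLDP mice. Every PLDP mouse lay above every control mouse. The means of Drc1 were 10.8 ± 0.81 and 12.3 ± 0.41 CPM (SD over 3 mice each), and the log2 fold change was 0.20 with a standard error of 0.09 (edgeR quasi-likelihood test, unadjusted p = 0.0467, Benjamini-Hochberg adjusted p = 0.568). Without control mouse 5 the call remained (log2 fold change 0.24, unadjusted p = 0.0404 from edgeR). Without control mouse 2, control mouse 10 or any 1 of the PLDP mice the unadjusted p from edgeR was between 0.0545 and 0.191, with no filter on low counts it was 0.0608, and DESeq2 gave an unadjusted p of 0.108.

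Hydin, Rsph4a and Iqca separated the diets without passing the test, and are described because their values were seen to do so. Hydin, a giant protein of the central pair apparatus whose loss causes hydrocephalus in mice, had 2.79, 2.63 and 3.06 CPM in the control mice and 3.35, 3.86 and 3.21 CPM in the PLDP mice. Its log2 fold change was 0.30 (95% interval -0.04 to 0.65, unadjusted p = 0.0794 and adjusted p = 0.631 from edgeR). Rsph4a, of the radial spoke head, had 3.13, 2.903 and 2.62 CPM in the control mice and 3.72, 3.40 and 3.37 CPM in the PLDP mice. The log2 fold change of Rsph4a was 0.28 (95% interval -0.06 to 0.61, unadjusted p = 0.0998 and adjusted p = 0.652 from edgeR). Iqca, of the nexin-dynein regulatory complex, had 17, 25 and 20 counts in the control mice and 28, 30 and 27 in the PLDP mice, or 0.818, 1.13 and 0.970 CPM against 1.30, 1.26 and 1.44 CPM. These few counts gave Iqca a log2 fold change of 0.44 with an interval from -0.09 to 0.98 (unadjusted p = 0.0983 and adjusted p = 0.649 from edgeR).

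The rest of this group did not separate. Ccdc39, which with Ccdc40 sets the spacing of inner arms and spokes along the doublet, had 21.5, 22.0 and 22.3 CPM in the control mice and 21.2, 22.1 and 23.4 CPM in the PLDP mice. It had the tightest estimate of all members, with means of 21.9 ± 0.44 and 22.2 ± 1.06 CPM (SD, n = 3 each), and the log2 fold change was 0.02 with a standard error of 0.07 (edgeR quasi-likelihood test, Benjamini-Hochberg adjusted p = 0.968). Ccdc40 ranged from 2.13 to 3.40 CPM in the control mice and from 2.51 to 2.98 in the PLDP mice. Rsph1, another spoke head gene, had 4.51 to 5.20 CPM in the control mice and 4.70 to 4.88 CPM in the PLDP mice, with a log2 fold change of -0.06. Cfap46, of the central pair, had 7.07, 6.90 and 8.63 CPM against 8.14, 10.1 and 7.54 CPM and a log2 fold change of 0.20 (95% interval -0.07 to 0.47). With 1 mouse left out the log2 fold change of Cfap46 ran from 0.059 to 0.30, and 1 of these 6 edgeR fits called it higher. Spag6l and Spag16, central pair genes, had log2 fold changes of -0.05 and 0.19. Spag17, of the same structure, had the lowest estimate of all members, -0.35 with an interval from -1.12 to 0.43, on 8 to 21 counts per mouse. Control mouse 2 was its highest mouse, and the other controls lay among the PLDP mice.

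The remaining axoneme genes overlapped between diets, with 0 of 4 called, near the 8.6% called and 14.2% separated over all features. Cfap65, the highest of them in CPM, had 8.71, 11.6 and 9.26 CPM in the control mice and 9.86, 11.4 and 10.8 CPM in the PLDP mice. Control mouse 5 was higher than all PLDP mice and the other controls were lower than all of them. Cfap65 means were 9.85 ± 1.52 and 10.7 ± 0.77 CPM (SD over 3 mice each), and the log2 fold change was 0.12 with a standard error of 0.11 (edgeR quasi-likelihood test, Benjamini-Hochberg adjusted p = 0.823). With 1 mouse left out the log2 fold change of Cfap65 ran from 0.035 to 0.25, and 1 of these 6 edgeR fits called it higher. Cfap43 and Cfap44, which tether dyneins to the doublet, had log2 fold changes of -0.21 and 0.03, and Ak7, an adenylate kinase of the axoneme, of 0.09. Cfap43 had 2.22 to 2.33 CPM in the control mice and 2.00, 2.26 and 1.603 CPM in PLDP mice 17, 22 and 26.

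**Figure D4:**
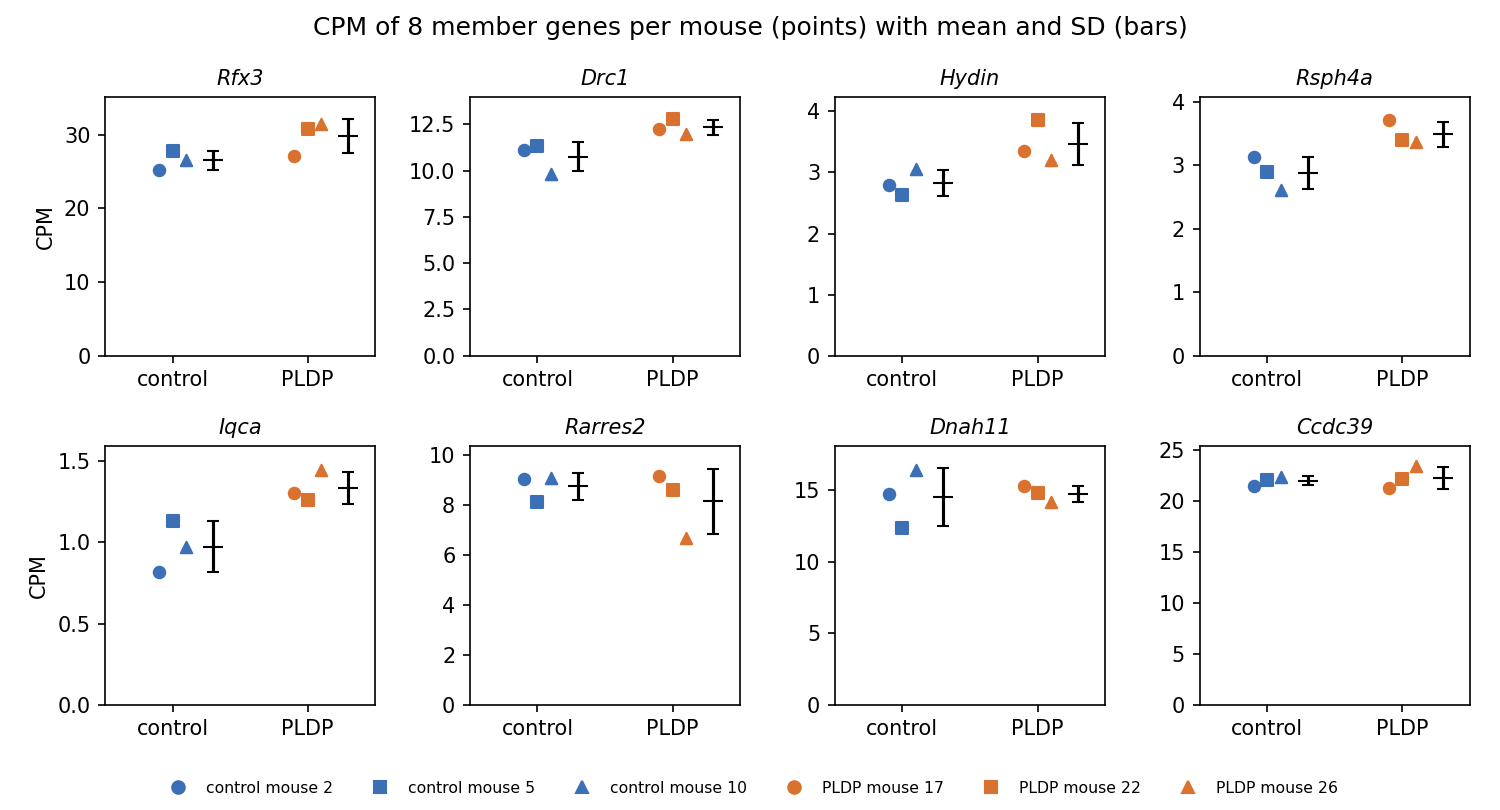
CPM of 8 members in each mouse (points, control blue and PLDP orange, a marker shape per mouse) with the mean and SD of each diet (bars, n = 3). Every PLDP mouse lies above every control mouse for Drc1, Hydin, Rsph4a and Iqca, and the diets overlap for Rfx3, Rarres2, Dnah11 and Ccdc39.

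Summed over all members, the level was 193.9, 195.9 and 201.5 CPM in the control mice and 207.1, 210.1 and 204.8 CPM in the PLDP mice. The groups did not overlap, and the mean of the PLDP mice was 1.05 times that of the controls. Much of this sum came from a few genes, Rfx3, Ccdc39, Dnah11 and Drc1. Without Rfx3 the sums were 168.7, 168.1 and 174.9 CPM in the control mice and 179.9, 179.3 and 173.2 CPM in the PLDP mice, so PLDP mouse 26 then lay below control mouse 10. The ependymal cell genes on their own summed to 15.5, 15.4 and 17.0 CPM in the control mice and 17.6, 15.9 and 13.8 CPM in the PLDP mice, with the highest and the lowest value both in PLDP mice. Weighing each member equally, the median deviation of a mouse from the gene means on the log2 scale was -0.041, -0.022 and -0.031 in the control mice and 0.097, 0.033 and 0.019 in the PLDP mice. PLDP mouse 17, which stood apart over all features, was thus the highest for the typical member.

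The members with an RFX core in a promoter window were also set beside those with a window and no core. In 3 members with the core, Rfx3, Tekt4 and Spag6l, it lay only after the start. Among the 16 tested members with the core, 13 had a fold change above 1, with a median log2 fold change of 0.16 and a range from -0.08 to 0.44. The 2 called members, Rfx3 itself and Drc1, are in this group. Among the 17 tested members with a window and no core, 11 did, with a median of 0.02 and a range from -0.35 to 0.21. Members without a window, Rsph4a among them, are in neither group. Over all features tested, 49.8% had a fold change above 1. The comparison is a description and was not tested.

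Other genes of the motile cilium were divided evenly between the directions. Of 71 tested genes of that list, 35 had a fold change above 1, the median log2 fold change was -0.0021, and 2 were called higher and 4 called lower at the same threshold. Called genes were thus 8.45% of the list, against 8.6% of all features. Lrrc6, which helps to assemble dynein arms in the cytoplasm, had 4.75 ± 0.49 CPM in the control mice and 3.67 ± 0.37 CPM in the PLDP mice (SD over 3 mice), and its log2 fold change was -0.38 (adjusted p = 0.457 from edgeR). Stk33 had a log2 fold change of -0.55 and Stk36, a kinase needed for the central pair, of 0.32, with adjusted p of 0.460 and 0.516 from edgeR. In the list of intraflagellar transport genes, which serve primary and motile cilia alike, 1 of 29 was called (3.45%, against 8.6% of all features), Kif3a, a subunit of the kinesin that carries cargo along the axoneme. Its log2 fold change was 0.09 (adjusted p = 0.519 from edgeR).

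Markers of other cells at the ventricle were compared in the same way. The choroid plexus, whose epithelium also bears cilia, had 5 of 20 tested markers called lower and 0 higher, or 25.0% against the 3.69% of all features called lower. Its markers summed to 1340, 1427 and 1381 CPM in the control mice and 1038, 1323 and 1200 CPM in the PLDP mice, and none was at 0. Most of this sum came from Ttr and Enpp2, the latter with means of 509.5 CPM in the control mice and 427.7 CPM in the PLDP mice. Of the 20 markers, 16 had a fold change below 1 and 4 above, and every PLDP mouse lay below every control mouse for 4 of them (Ttr, Enpp2, Msx1 and Car14) and above for 1 (Calml4). PLDP mouse 17, the highest mouse for the typical member, was the lowest here. Leaving out 1 mouse changed the number called lower to 3 without control mouse 5, to 3 (with 1 called higher) without PLDP mouse 17 and to 9 without PLDP mouse 22. Ttr, the transthyretin gene, had 708.4 ± 25.9 CPM in the control mice and 607.4 ± 67.7 CPM in the PLDP mice (SD, n = 3 each; adjusted p = 0.261 from edgeR). Of 7 tested tanycyte markers, all had a fold change above 1 and 0 were called at an unadjusted p under 0.05 or an adjusted one by edgeR, and the list summed to 204.9 to 215.3 CPM in the control mice and 216.7 to 227.3 CPM in the PLDP mice. The tanycyte sums thus lay higher in every PLDP mouse. Those of the members did so only with Rfx3 included, and those of the ependymal cell genes overlapped. The sums of the intraflagellar transport genes also lay higher, at 1214 to 1218 CPM in the control mice and 1222 to 1243 CPM in the PLDP mice. Of 10 astrocyte markers, 7 had a fold change below 1, and 2 were called lower (20.0%, against 3.69% of all features) and 0 higher. Of 10 meningeal and mural markers, 5 had a fold change below 1, and 1 was called lower (10.0%) and 0 higher. What part such cells have in the levels of the members was not tested.

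**Figure D5:**
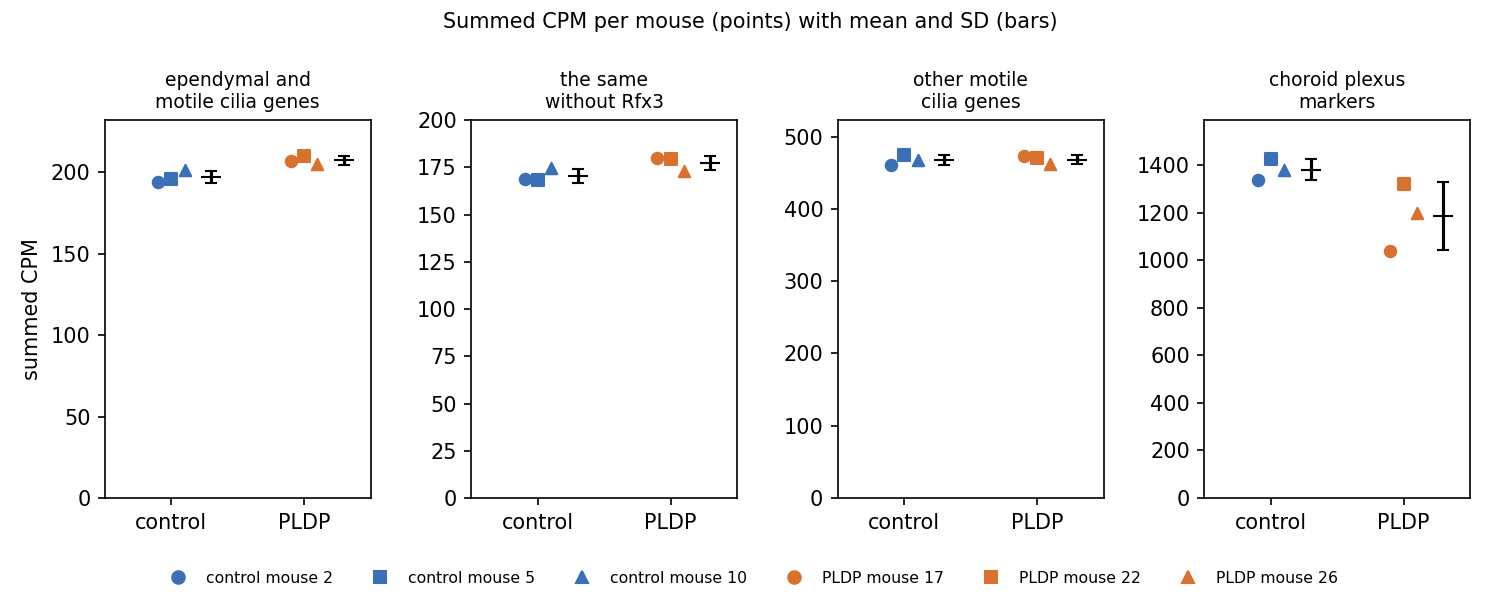
Summed CPM in each mouse (points, control blue and PLDP orange) with the mean and SD of each diet (bars, n = 3), for the members, the members without Rfx3, other motile cilia genes and choroid plexus markers, each on an axis from 0. The PLDP mice lie between 204.8 and 210.1 CPM for the members, above the control mice at 193.9 to 201.5, while the choroid plexus markers lie lower in the PLDP mice.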

How the data were processed

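Polyadenylated RNA of 6 whole brains was sequenced with stranded libraries. Unnormalized read counts, whole numbers per feature, were deposited for each mouse, and all were used. The submitters' processing notes name cutadapt 2.9, HISAT2 2.2.0, featureCounts 2.6.0 and DESeq2 1.6.3, with no settings. The members and gene lists were chosen with earlier results of these data known. Genes were matched to GENCODE M21 by Ensembl identifier. The analysis ran in edgeR 4.0.16 (R 4.3.3). Features passing filterByExpr by diet (minimum count 10, minimum total 15) received TMM factors and a quasi-likelihood test (glmQLFit, glmQLFTest) of diet, the single term. CPM were computed by edgeR from the TMM-scaled library sizes. Intervals are 95% intervals from the test's standard error. Full statistics are given for members with an unadjusted p under 0.05, for the member with the highest CPM in each role, and for up to 3 genes of the other lists. Hydin, Rsph4a, Iqca and members given by values alone were named after their values were seen. A planned search for genes with a like pattern over mice was not made. The labels do not say whether the diets were housed or processed apart. The p-values measure the spread between these mice, and any difference of cage or processing that ran with diet cannot be told apart from diet. The alternatives were other filters, scalings, DESeq2 1.42.0, limma voom 3.58.1 and leaving out each mouse. The fit was also run on simulated counts with larger changes than those of the members. That run does not show how well changes of the members' size are found. A further oligodendrocyte marker is not reported here.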

Additional observations from a re-analysis of the deposited data

How the results depend on the processing

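Over 13 alternatives, 15 of the 37 tested members kept the sign of their log2 fold change in every one, among them Rfx3 and Drc1, and the median over the members stayed positive, from 0.025 without control mouse 5 to 0.059 without PLDP mouse 22. The number of members called higher, 2 in the main analysis, was 1 with no filter on low counts (Rfx3), 0 with DESeq2, and between 0 and 3 when 1 mouse was left out (0 without control mouse 2, PLDP mouse 22 or PLDP mouse 26), and the number called lower was 0 throughout. DESeq2 called 0 of the other motile cilia genes higher and 0 lower, and leaving out 1 mouse gave 0 to 2 higher and 1 to 4 lower. Over all features, DESeq2 called 564 higher and 362 lower, no filter gave 1314 higher and 1046 lower of 36099 features tested in place of 18580, and leaving out 1 mouse gave 640 to 1293 higher and 493 to 1072 lower. The causes were not tested.

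The 22 members whose sign turned, Spag17 (-0.35 in the main analysis) and Tekt4 (0.28) among them, had an unadjusted p above 0.05 in every fit. For Dnaic2 it turned to -0.0018 with no filter, -0.00067 with library size only, -0.0054 with limma voom and between -0.12 and 0.10 when 1 mouse was left out. With 1 mouse left out the log2 fold changes ran from -0.18 to 0.11 for Rfx2, -0.26 to 0.074 for Tmem212, -0.18 to 0.021 for Rarres2, -0.22 to 0.0062 for Pifo, -0.19 to 0.056 for Dnah5, -0.0091 to 0.031 for Dnah6, -0.0080 to 0.23 for Dnah9, -0.20 to 0.045 for Dnah10, -0.078 to 0.12 for Dnah11, -0.20 to 0.049 for Dnaic1, -0.10 to 0.31 for Dynlrb2, -0.053 to 0.19 for Tekt1, -0.10 to 0.48 for Tekt4, -0.21 to 0.052 for Cfap52, -0.15 to 0.19 for Cfap126, -0.17 to 0.044 for Spag6l, -0.50 to 0.014 for Spag17, -0.018 to 0.049 for Ccdc39, -0.13 to 0.20 for Ccdc40, -0.043 to 0.26 for Ak7 and -0.061 to 0.12 for Cfap44. Added after the data were seen, the 22 tested members that share no exon base with another gene had a median of 0.067 and the 27 with a mean of 2 CPM or more one of 0.030, each with 2 called higher (9.09% and 7.41%, against 4.91% of all features) and 0 lower. Depth limits the members with under 50 counts per mouse on average, 12 of the 37. No paired analysis was possible because the diets share no mouse numbers.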
